A study of Mus musculus with 12 samples.

Results

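The 8 dual-specificity MAP kinase phosphatase genes Dusp1, Dusp2, Dusp4, Dusp5, Dusp6, Dusp10, Dusp14 and Dusp16 were followed across 12 RNA-seq libraries of mouse peritoneal macrophages. They were chosen by gene symbol, and all 8 were found among the 16920 genes of the deposited tables. All 8 were also among the 12064 genes that passed the filter on low counts. The study examined how macrophages without Ythdf1, whose protein binds N6-methyladenosine in mRNA, respond to lipopolysaccharide (LPS), the outer-membrane glycolipid of Gram-negative bacteria. Each of 4 groups held 3 libraries. WT PBS and WT LPS were cells of wild-type C57BL/6 mice kept for 6 h with PBS or with 1 µg/mL LPS. KO PBS and KO LPS were cells labelled Ythdf1-/-, from C57BL/6 mice made with CRISPR/Cas9, treated in the same manner. Mice were 6 to 10 weeks old according to the methods. The methods describe a knockout of the whole animal. All cells had been drawn into the peritoneum before harvest, by 6% starch broth over 3 days per the series record and by thioglycollate per the methods, and then rested in culture overnight. The samples were described as independent biological replicates, whereas the number of mice behind each library is not given in the sources used here, so p-values measure the spread between these samples.

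MAP kinases (ERK, JNK and p38) are switched on when a threonine and a tyrosine in their activation loop are phosphorylated, and the dual-specificity phosphatases remove both phosphates. Many of these phosphatases are themselves induced by the signal they end, which makes them a classical negative feedback of Toll-like receptor signalling in macrophages. Dusp1, Dusp2, Dusp4 and Dusp5 encode nuclear, inducible enzymes, Dusp6 a cytoplasmic enzyme selective for ERK, and Dusp10 and Dusp16 enzymes that prefer JNK and p38. Dusp14 encodes a small atypical member without the MAP kinase-binding domain.

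The targeted gene was examined before the Dusp genes. Its mean level in CPM, the normalised read count after scaling for library size, was 43.5 ± 1.54 (SD, n = 3) for WT PBS against 57.2 ± 1.53 for KO PBS, and 201 ± 9.37 for WT LPS against 198 ± 6.94 for KO LPS. Ythdf1 mRNA was therefore not lost in the libraries labelled KO. A count per gene does not tell whether that mRNA carries the edit or yields protein. For the mouse line, the paper shows tail genotyping and YTHDF1 immunoblots of liver and spleen from chimeric mice. Every genotype comparison here rests on the label. Total counts lay between 21546274 and 22017005 per library, and 3 counts, taken as the detection floor, correspond to 0.105 to 0.187 CPM. WT LPS replicate 1 lay farther from replicates 2 and 3 (SD of the log2 CPM differences 0.443 and 0.420) than these lay from each other (0.344), and KO PBS replicate 3 lay farther from replicates 1 and 2 (0.339 and 0.341) than these from each other (0.289). All 8 macrophage markers passed the filter, with summed levels of 17200 to 17700 CPM in WT PBS, 17900 to 19700 in WT LPS, 18300 to 18400 in KO PBS and 18700 to 19900 in KO LPS. Some markers of other cells moved with the genotype label. The summed level of 5 fibroblast markers was 75.1 to 88.6 CPM in WT PBS, 118 to 132 CPM in WT LPS, 32.9 to 46.2 CPM in KO PBS and 57 to 69.5 CPM in KO LPS. That of 5 mesothelial markers was 6.37 to 6.97, 6.54 to 7.29, 3.26 to 4.28 and 4.65 to 5.66 CPM in the same order, and that of 4 skeletal muscle markers 15.5 to 19.9, 25.8 to 30.8, 0.319 to 17.2 and 0.428 to 0.684 CPM. The KO PBS libraries were split for muscle, with 13.5 and 17.2 CPM in replicates 1 and 2 and 0.319 CPM in replicate 3, which was at the level of KO LPS. The 6 T cell markers summed to 0.537 to 0.904 CPM in WT PBS and 8.67 to 13.2 CPM in WT LPS, and to 0.602 to 0.875 CPM in KO PBS and 4.17 to 4.59 CPM in KO LPS. Only 1 of 6 mast cell markers and 2 of 6 T cell markers passed the filter on low counts, so these sums rest on few reads. The 6 mast cell markers summed to 0.644 to 0.904 CPM in WT PBS against 0.175 to 0.456 CPM in KO PBS, and to 1.02 to 1.42 CPM in WT LPS against 2.88 to 3.62 CPM in KO LPS, lower under the KO label at rest and higher after LPS without overlap. Of the remaining lists, B cell, NK cell, eosinophil and dendritic cell markers summed to at most 3.61 CPM and neutrophil markers to at most 16 CPM in any library. Ly6g, Ngp, Epx and Prg2 of these lists were not found by symbol among the 16920 genes. The neutrophil sum therefore rests on 4 of 6 markers and the eosinophil sum on 2 of 4. No other listed marker was at 0 in all libraries. In bulk RNA, fewer cells of a type and less RNA per cell cannot be told apart, and the part of these markers in the results below was not tested.

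The members lie on 8 chromosomes of GRCm38.p6. Dusp1 (gene 19252) spans chr17:26505591-26508472 on the minus strand, Dusp2 (13537) chr2:127336159-127338377 on the plus strand, Dusp4 (319520) chr8:34807610-34819894 on the plus strand and Dusp5 (240672) chr19:53529145-53541809 on the plus strand. Dusp6 (67603) spans chr10:99263231-99267489 and Dusp10 (63953) chr1:184034381-184075636, both on the plus strand. Dusp14 (56405) spans chr11:84048033-84069256 and Dusp16 (70686) chr6:134715468-134807063, both on the minus strand. Dusp5 shares 547 exon bases with the antisense gene AC137853.2 and Dusp1 shares 11 with Ergic1 on the opposite strand. The sources used here do not state whether strand was used in counting, so reads over these bases cannot be assigned to either gene.

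Promoter sequences were taken from RefSeq on GRCm38.p6, 250 bases before to 50 after an annotated transcript start. For Dusp14 (chr11:84068308-84068607) and Dusp16 (chr6:134792579-134792878), both on the minus strand, this start lies inside the gene span given above. The outer ends of these genes were not searched. Sequences are shown for 3 members whose transcripts behaved differently with LPS, namely Dusp1 and Dusp5, which rose, and Dusp6, which fell in WT cells. In Dusp1 (chr17:26508423-26508722, minus strand) the capitals mark a cyclic AMP response element (TGACGTCA), whose first base lies at -143 from the start. In Dusp5 (chr19:53528895-53529194, plus strand) they mark a pair of adjacent CArG boxes, the motif bound by serum response factor, which begin at -82 and -72. Dusp6 (chr10:99262981-99263280, plus strand) holds none of the motifs searched, so no base is in capitals.
Dusp1: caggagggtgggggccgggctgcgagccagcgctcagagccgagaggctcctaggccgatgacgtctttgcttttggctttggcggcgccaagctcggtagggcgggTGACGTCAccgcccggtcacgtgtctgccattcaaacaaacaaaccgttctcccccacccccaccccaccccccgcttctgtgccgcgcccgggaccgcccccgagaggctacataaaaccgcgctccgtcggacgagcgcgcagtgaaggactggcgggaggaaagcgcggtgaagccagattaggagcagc
Dusp5: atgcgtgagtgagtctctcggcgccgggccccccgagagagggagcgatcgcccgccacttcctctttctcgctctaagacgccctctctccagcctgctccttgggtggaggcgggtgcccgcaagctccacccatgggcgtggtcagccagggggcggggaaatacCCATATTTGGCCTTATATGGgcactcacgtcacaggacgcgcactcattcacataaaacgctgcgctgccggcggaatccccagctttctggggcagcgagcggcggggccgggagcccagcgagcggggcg
Dusp6: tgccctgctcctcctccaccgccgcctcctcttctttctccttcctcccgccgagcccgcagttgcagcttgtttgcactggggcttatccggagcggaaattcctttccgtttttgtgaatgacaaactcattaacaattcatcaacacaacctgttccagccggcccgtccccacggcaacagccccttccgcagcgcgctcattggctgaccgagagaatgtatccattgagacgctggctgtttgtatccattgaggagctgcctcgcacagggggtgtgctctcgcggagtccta
Both strands were searched for TGACGTCA, for its core TGACG (held by each full element as well), for the AP-1 site TGANTCA, and for the kappaB and CArG motifs. Of 32851 RefSeq promoters of the same length, 1.79% held TGACGTCA, 20.8% TGACG, 7.81% TGANTCA, 8.46% the kappaB motif and 1.63% a CArG box. Among the 7 members in the promoter table, Dusp1 held the response element and Dusp5 the CArG boxes, whereas Dusp2, Dusp6, Dusp10, Dusp14 and Dusp16 held neither of these, nor the AP-1 or kappaB letters, in this window. TGACG was matched 3 times in Dusp1, where the full element counts once on each strand, and 1 time each in Dusp2, Dusp5 and Dusp16. Dusp4 has no entry in the table. The GC content of the 7 promoters lay between 57.3% in Dusp6 and 70.7% in Dusp2. A match describes the sequence and not binding, and no match says only that these letters are absent from this window.

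In resting WT cells, the members differed widely in abundance. Levels were compared between genes as CPM per kilobase of merged exons. These merge all annotated transcripts, and for Dusp1 their 3.311 kb exceed the 2882 bases of the whole gene as positioned above. Levels per kb and shares are therefore approximate between genes, and those of Dusp1 may be understated. Dusp1 was the most abundant at 13.6 ± 0.641 CPM per kb (SD, n = 3), followed by Dusp6 at 10.8, Dusp4 at 4.99, Dusp2 at 3.33, Dusp10 at 1.90, Dusp16 at 1.18 and Dusp5 at 1.01 CPM per kb. Dusp14 was close to the limit of detection at 0.148 ± 0.0368 CPM per kb, with counts of 8, 10 and 6 in the WT PBS libraries. Summed over the 8 genes, the level was 37.0 ± 1.40 CPM per kb in WT PBS and 251 ± 13.3 CPM per kb in WT LPS. It was 32.5 ± 0.709 CPM per kb in KO PBS and 255 ± 6.17 CPM per kb in KO LPS, so the sum differed far more between treatments than between labels.

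LPS also changed which phosphatase transcripts made up the sum. In WT PBS, Dusp1 held 36.9% of it, Dusp6 29.2%, Dusp4 13.5% and Dusp2 9.02%. In WT LPS, Dusp1 held 52.2%, Dusp2 36.1% and Dusp16 6.15%, while Dusp6 held 1.63% and Dusp4 1.68%. In KO LPS, Dusp1 held 49.4%, Dusp2 32.1% and Dusp16 10.8%, with 3.09% for Dusp6 and 2.64% for Dusp4. The share of Dusp16 was 5.75% to 6.88% in the WT LPS libraries and 9.44% to 11.7% in the KO LPS libraries, without overlap. A share can fall without a fall in level, because the sum rose with LPS. Under the KO label, Dusp4 went from 7.88% to 2.64% although its level rose 2.62-fold. The shares depend on the exon lengths used, are a description and were not tested.

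**Figure D1:**
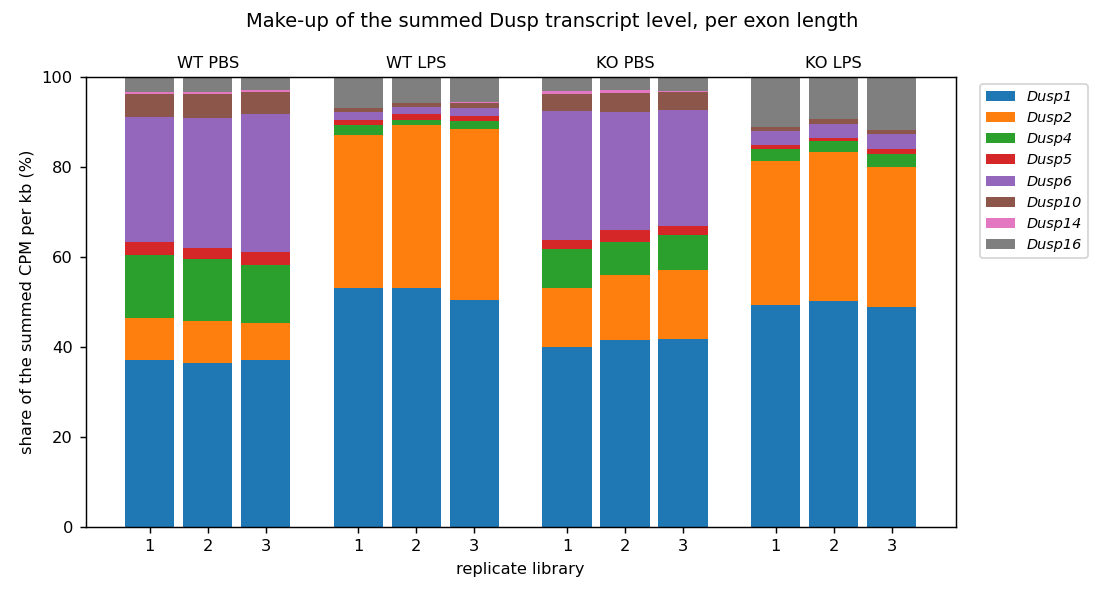
Share of each Dusp gene in the summed level of the 8 genes (%, from CPM per kb of exon) in each of the 12 libraries, grouped by label and treatment. Dusp6 and Dusp4 take up a wide band in the PBS libraries, whereas Dusp1 and Dusp2 hold most of the sum in the LPS libraries and the Dusp16 band is wider in KO LPS than in WT LPS.

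The response to LPS in WT cells was measured first. Of the 8 genes, 6 passed the threshold (edgeR quasi-likelihood test, Benjamini-Hochberg adjusted p under 0.05 over 12064 genes). Dusp2, Dusp16, Dusp1, Dusp5 and Dusp10 were higher with LPS, Dusp6 was lower, and Dusp4 and Dusp14 did not pass. Since 76.7% of all genes tested passed in this comparison, 36.5% higher and 40.2% lower, a count of 6 of 8 is near the background. A change of over 1 log2 unit was found in 5 of the 8, against 36.4% of all genes, and the median log2 fold change of the members was 1.26, against -0.048 over all genes. WT PBS and WT LPS libraries did not overlap in 5 of the 8, against 78.2% of all genes.

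Among the nuclear enzymes, Dusp1, which acts on p38, JNK and ERK, was measured at 45.9, 42.8 and 46.9 CPM in WT PBS and at 421, 468 and 414 CPM in WT LPS. Every LPS library lay far above every PBS library. Dusp1 rose 9.61-fold, or by 3.27 ± 0.0636 on the log2 scale (SE, adjusted p = 3.48e-17). Dusp2, an enzyme of activated leukocytes that acts on ERK and p38, was at 6.98, 6.69 and 6.36 CPM in WT PBS and at 164, 192 and 188 CPM in WT LPS. Scarce at rest, it became the most abundant transcript per length after Dusp1, at 90.7 CPM per kb against 131. Its rise of 27.2-fold (log2 4.76 ± 0.0828, adjusted p = 9.38e-18) was the largest of the 8. Dusp5, a nuclear enzyme selective for ERK, was at 2.68, 2.15 and 2.64 CPM in WT PBS and at 6.54, 9.28 and 7.39 CPM in WT LPS. The groups did not overlap, and Dusp5 rose 3.10-fold (log2 1.63 ± 0.184, adjusted p = 4.18e-07) while remaining a rare transcript. Dusp4, a nuclear relative of Dusp1, was at 14.2, 13.2 and 13.5 CPM in WT PBS and at 14.1, 8.88 and 11.4 CPM in WT LPS. The LPS libraries spread widely, with replicate 1 inside the PBS range. Dusp4 did not pass (log2 -0.25 ± 0.133, adjusted p = 0.0936), but without WT LPS replicate 1 it passed as lower, at -0.43 (adjusted p = 0.00342). It also passed as lower with the replicate number as a block, at -0.26 (adjusted p = 0.0303).

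Dusp6, a cytoplasmic phosphatase of ERK, was at 32.6, 32.1 and 36.9 CPM in WT PBS and at 13.1, 12.9 and 12.4 CPM in WT LPS. The 3 LPS libraries lay close together and well under the PBS libraries. Dusp6 was 2.65-fold lower with LPS (log2 -1.41 ± 0.0805, adjusted p = 5.79e-11), and it was the only member that passed as lower in this comparison.

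Of the enzymes that prefer JNK and p38, Dusp16 was at 9.44, 9.12 and 8.94 CPM in WT PBS and at 129, 120 and 111 CPM in WT LPS. No LPS library came near the PBS libraries, and Dusp16 rose 13.1-fold (log2 3.71 ± 0.0963, adjusted p = 1.21e-15). Dusp10 was at 5.79, 5.83 and 5.72 CPM in WT PBS and at 7.17, 5.69 and 8.63 CPM in WT LPS. The PBS libraries were almost equal and lay within the range of the LPS libraries. Its difference (log2 0.31 ± 0.124, adjusted p = 0.0312) passed narrowly and did not hold when libraries were left out, at 0.32 without WT PBS replicate 2 (adjusted p = 0.0589), 0.30 without WT PBS replicate 3 (0.0711), 0.31 without WT LPS replicate 1 (0.0526) and 0.15 without WT LPS replicate 3 (0.264). It was also lost with no filter on low counts and with at least 10 counts in every library (both 0.27, adjusted p = 0.0681 and 0.0529). Its direction also turned with the scaling, at 0.0001 under upper-quartile scaling and -0.35 (adjusted p = 0.0149, lower) with library totals alone. The atypical Dusp14 was at 0.289, 0.358 and 0.214 CPM in WT PBS and at 0.289, 0.569 and 0.733 CPM in WT LPS. The groups overlapped, and with 5 to 13 counts per library its difference (log2 0.88 ± 0.418, adjusted p = 0.0667, 95% interval -0.01 to 1.76) could not be told from the spread, although it passed without WT LPS replicate 1, at 1.17 (adjusted p = 0.0220).

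**Figure D2:**
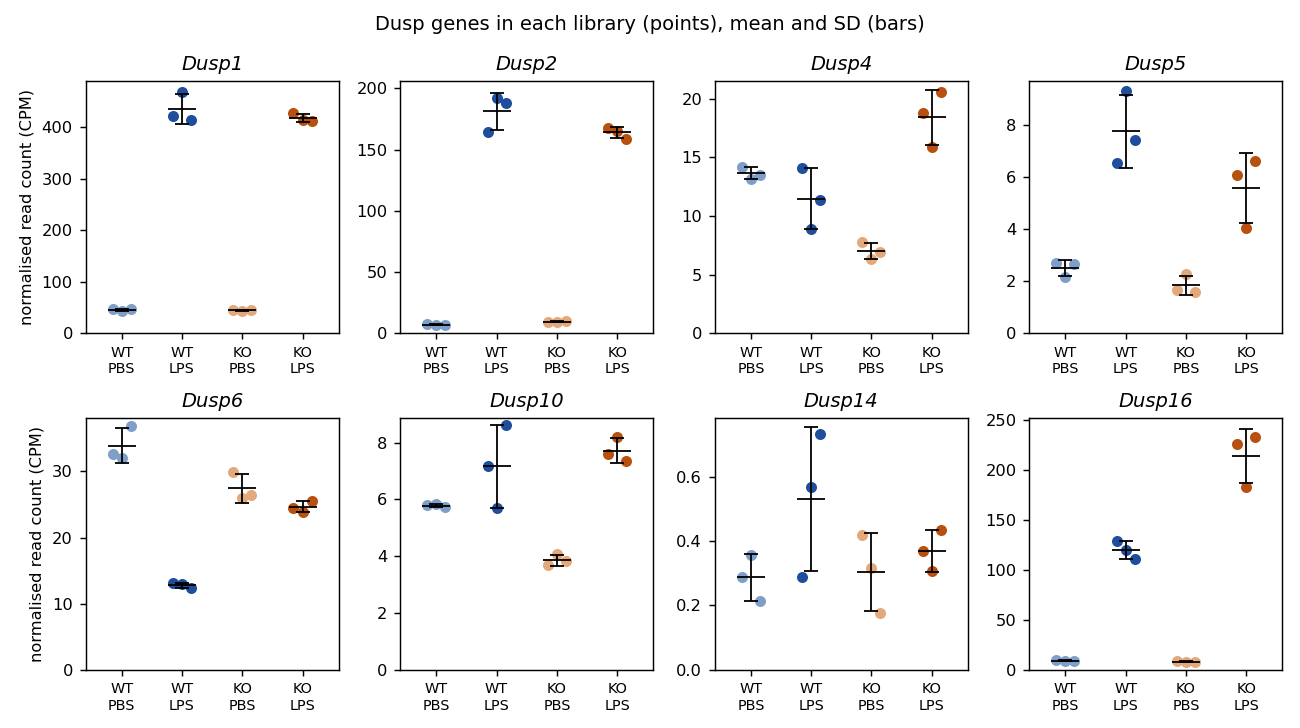
Normalised read count (CPM, linear axes from 0, a separate scale per gene) of the 8 Dusp genes in the 12 libraries. Points are libraries and bars the mean and SD of 3. Dusp1, Dusp2 and Dusp16 are high in both LPS groups, Dusp6 is lowest in WT LPS, and Dusp4 is lowest in KO PBS and highest in KO LPS.

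The size of these changes depends on how libraries were scaled, because LPS libraries received TMM scaling factors of 0.744 to 0.808 and PBS libraries factors of 1.26 to 1.31. With totals alone, the median change of all genes in WT moved by -0.66 on the log2 scale, and with upper-quartile scaling by -0.31. The rises of Dusp1, Dusp2, Dusp5 and Dusp16 and the fall of Dusp6 kept their direction and passed under all 21 alternative fits tried. With totals alone, Dusp1 rose by 2.60, Dusp2 by 4.10, Dusp5 by 0.97 and Dusp16 by 3.05, and Dusp6 was lower by 2.07. Dusp4 passed as lower under both scalings, at -0.57 with the upper quartile and -0.92 with totals. The split of members was 4 higher and 2 lower with upper-quartile scaling and 4 higher and 3 lower with totals. Over all genes called, 47.6% were higher with TMM, 32.5% with the upper quartile and 21.2% with totals.

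**Figure D3:**
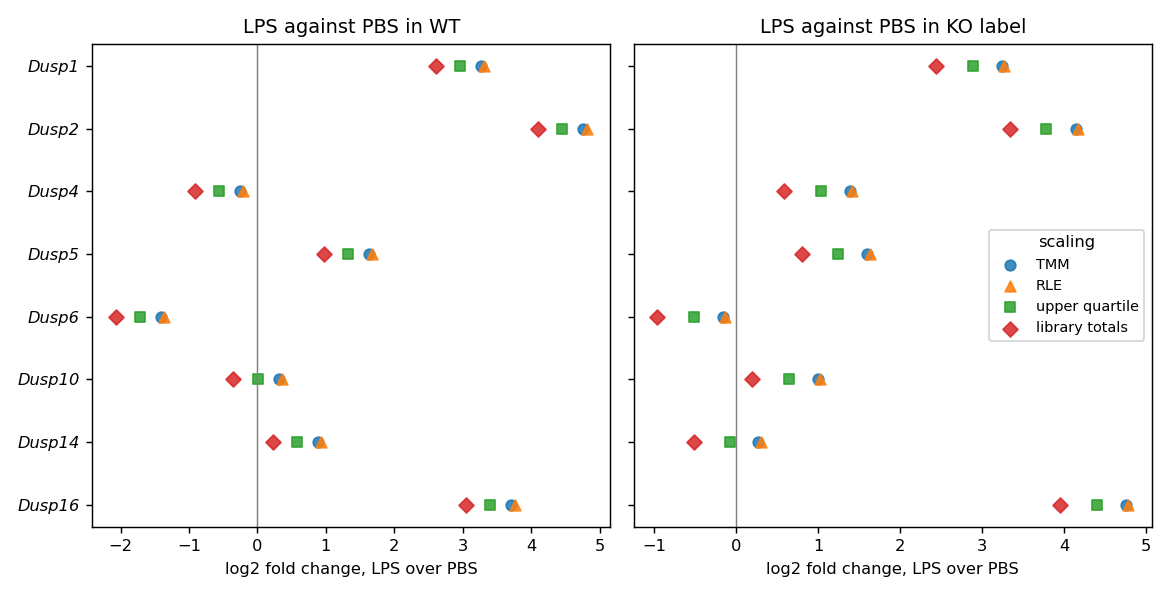
Log2 fold change of LPS over PBS of each Dusp gene in WT (left) and KO-labelled cells (right) under 4 scalings of the libraries (TMM, RLE, upper quartile, library totals). TMM and RLE nearly coincide, while totals shift every gene to the left, which moves Dusp10 in WT from 0.31 to -0.35.

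In KO-labelled cells, LPS gave the same number of calls with another composition. Of the 8 genes, 6 passed and all of these were higher (79.9% of all genes passed in this comparison, 38.8% higher and 41.1% lower). The split over all genes was 4682 higher and 4953 lower with TMM, 3345 and 6557 with the upper quartile, and 2202 and 8387 with totals. The members called were Dusp16, Dusp2, Dusp1, Dusp5, Dusp4 and Dusp10. A change of over 1 log2 unit was found in 5, against 41.7% of all genes, the median was 1.497 against -0.041, and the groups did not overlap in 7 members, against 81.3% of all genes.

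Dusp1 was at 44.0, 43.5 and 45.0 CPM in KO PBS and at 427, 414 and 411 CPM in KO LPS. These levels lay close to those of the WT libraries, and Dusp1 rose 9.45-fold (log2 3.24 ± 0.0636, adjusted p = 2.88e-17). Dusp2 was at 8.72, 9.20 and 9.99 CPM in KO PBS and at 168, 165 and 159 CPM in KO LPS. It started from a higher level than in WT PBS and rose 17.6-fold (log2 4.14 ± 0.0795, adjusted p = 2.22e-17). Dusp16 was at 8.33, 7.58 and 7.90 CPM in KO PBS and at 226, 183 and 233 CPM in KO LPS. Its rise of 27.0-fold (log2 4.75 ± 0.0994, adjusted p = 6.07e-17) was the largest of the 8 under this label, and per length it reached 27.5 CPM per kb against 15.4 in WT LPS. Dusp5 was at 1.65, 2.25 and 1.59 CPM in KO PBS and at 6.08, 4.04 and 6.59 CPM in KO LPS, a rise of 3.04-fold (log2 1.60 ± 0.205, adjusted p = 1.79e-06).

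Dusp4 was at 7.77, 6.35 and 6.94 CPM in KO PBS and at 18.8, 15.9 and 20.6 CPM in KO LPS. All 3 LPS libraries exceeded all 3 PBS libraries, and Dusp4 rose 2.62-fold (log2 1.39 ± 0.136, adjusted p = 8.33e-08), with 1.03 under upper-quartile scaling and 0.59 with library totals alone, both passing. With totals alone, Dusp1 rose by 2.44 under this label, Dusp2 by 3.34, Dusp16 by 3.95 and Dusp5 by 0.80. Dusp10 was at 3.68, 4.07 and 3.83 CPM in KO PBS and at 7.61, 8.20 and 7.34 CPM in KO LPS. It rose 2-fold (log2 1.00 ± 0.130, adjusted p = 2.26e-06), also without overlap, although with library totals alone the difference was 0.20 (adjusted p = 0.164). Dusp6 was at 29.9, 26 and 26.4 CPM in KO PBS and at 24.5, 23.9 and 25.6 CPM in KO LPS. The highest LPS library lay just under the lowest PBS library. The difference of Dusp6 did not pass (log2 -0.16 ± 0.0760, adjusted p = 0.0718, 95% interval -0.32 to 0.01), but it passed as lower without KO PBS replicate 2, at -0.20 (adjusted p = 0.0426), with no filter on low counts (-0.20, adjusted p = 0.0313) or at least 10 counts in every library (-0.20, adjusted p = 0.0210), and under upper-quartile scaling and library totals, at -0.51 and -0.96. Dusp14 was at 0.420, 0.316 and 0.177 CPM in KO PBS and at 0.368, 0.306 and 0.435 CPM in KO LPS, with overlapping groups and no call (log2 0.27 ± 0.456, adjusted p = 0.590).

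**Figure D4:**
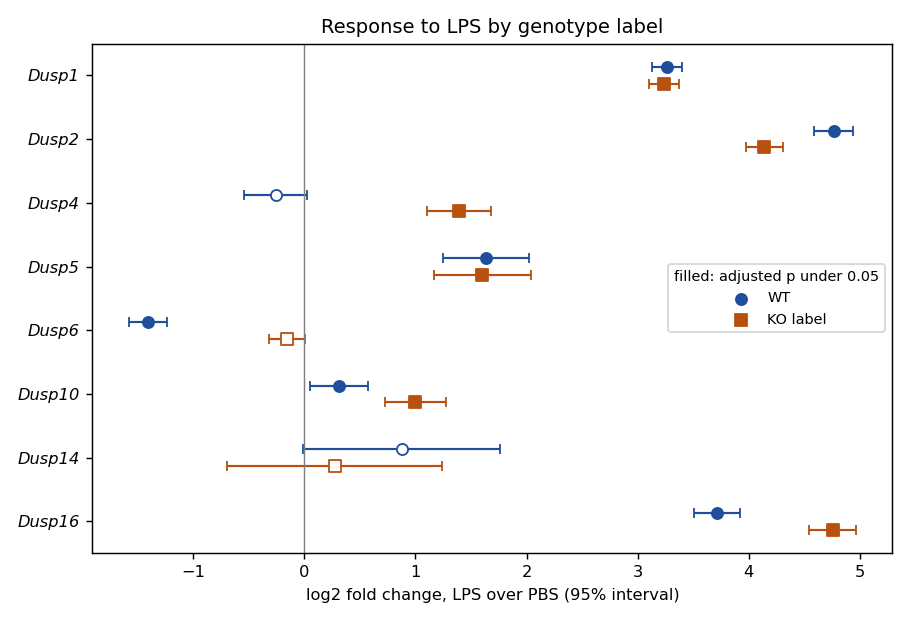
Log2 fold change of LPS over PBS with its 95% interval for the 8 Dusp genes in WT and KO-labelled libraries, filled where the adjusted p is under 0.05. Dusp1 and Dusp5 sit at nearly the same value under both labels (3.27 and 3.24, 1.63 and 1.60), while Dusp4 and Dusp6 lie on or near 0 under one label and away from it under the other.

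To learn whether the genotype label was tied to these genes before stimulation, KO PBS was compared with WT PBS. Of the 8 genes, 4 passed, with Dusp2 higher and Dusp4, Dusp6 and Dusp10 lower in KO PBS (25.3% of all genes passed, 12.3% higher and 13.0% lower). With totals alone, the split over all genes moved from 1486 higher and 1572 lower to 1991 and 1241. None of the 8 differed by more than 1 log2 unit, against 3.31% of all genes. The groups did not overlap in 5 of the 8, against 48.1% of all genes, and the median log2 difference of the members was -0.26, against 0.00036 over all genes.

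Dusp4 differed the most at rest. Its WT PBS libraries lay between 13.2 and 14.2 CPM and its KO PBS libraries between 6.35 and 7.77 CPM, so that the lowest WT library stood well above the highest KO-labelled library. It was 1.94-fold lower in KO PBS (log2 -0.96 ± 0.133, adjusted p = 8.77e-05). The mean of Dusp10 was 5.78 ± 0.0565 CPM for WT PBS against 3.86 ± 0.200 CPM for KO PBS (SD, n = 3), again without overlap, and was 1.5-fold lower (log2 -0.58 ± 0.126, adjusted p = 0.00305). Dusp6 averaged 33.9 ± 2.62 CPM and 27.5 ± 2.12 CPM, and was 1.23-fold lower in KO PBS (log2 -0.30 ± 0.0716, adjusted p = 0.00560). Dusp2 went the other way, from 6.68 ± 0.309 CPM to 9.30 ± 0.644 CPM, and was 1.39-fold higher (log2 0.48 ± 0.0891, adjusted p = 0.00101). These 4 calls kept their direction and passed in all 21 alternative fits (not counting the threshold of 1 log2 unit, which none met), in which Dusp4 ranged from -1.01 to -0.87, Dusp10 from -0.60 to -0.52, Dusp6 from -0.34 to -0.24 and Dusp2 from 0.44 to 0.58. Without KO PBS replicate 3, the library apart in its muscle markers, they were -0.93 for Dusp4, -0.55 for Dusp10, -0.26 for Dusp6 (adjusted p = 0.0405) and 0.445 for Dusp2.

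The other 4 did not pass at rest. The mean of Dusp16 was 9.17 ± 0.254 CPM for WT PBS against 7.94 ± 0.376 CPM for KO PBS, free of overlap but not past the threshold (log2 -0.21 ± 0.106, adjusted p = 0.173, 95% interval -0.43 to 0.02). Dusp5 averaged 2.49 ± 0.297 and 1.83 ± 0.363 CPM (log2 -0.44 ± 0.215, adjusted p = 0.150, 95% interval -0.90 to 0.01). For Dusp1, at 45.2 ± 2.12 and 44.2 ± 0.754 CPM, the interval of the log2 difference was narrow, from -0.16 to 0.10 around -0.03 (adjusted p = 0.745). For Dusp14 it was wide, from -0.81 to 0.98 around 0.08 (adjusted p = 0.913) with counts of 5 to 12 per PBS library.

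After LPS, 4 members differed between the labels as well, 3 higher and 1 lower in KO LPS (41.4% of all genes passed, 22.1% higher and 19.3% lower). Over all genes, 2663 were higher and 2327 lower with TMM, 2077 and 2921 with the upper quartile, and 1919 and 3150 with totals. Dusp6, Dusp16 and Dusp4 were higher and Dusp5 was lower. No member differed by more than 1 log2 unit, against 4.72% of all genes. The groups did not overlap in 3 members, against 45.6% of all genes, and the median was 0.025 against 0.00059.

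The mean of Dusp6 was 12.8 ± 0.339 CPM for WT LPS against 24.7 ± 0.886 CPM for KO LPS (SD, n = 3). The lowest KO-labelled library, at 23.9 CPM, held far more than the highest WT library, at 13.1 CPM. Dusp6 was 1.93-fold higher in KO LPS (log2 0.95 ± 0.0849, adjusted p = 4.32e-07). The mean of Dusp16 was 120 ± 8.98 CPM for WT LPS against 214 ± 26.9 CPM for KO LPS. Its KO-labelled libraries spread more than the WT libraries, but the lowest of them, at 183 CPM, exceeded the highest WT library, at 129 CPM. The difference was 1.78-fold (log2 0.83 ± 0.0811, adjusted p = 1.00e-06). The mean of Dusp4 was 11.5 ± 2.61 CPM for WT LPS against 18.4 ± 2.39 CPM for KO LPS, free of overlap, and was 1.61-fold higher (log2 0.69 ± 0.136, adjusted p = 0.000840). It was thus higher in KO-labelled cells after LPS and lower in them at rest. These 3 passed with the same direction in all 21 alternative fits (the threshold of 1 log2 unit, which none met, not counted), Dusp6 between 0.86 and 0.97, Dusp16 between 0.75 and 0.94 and Dusp4 between 0.53 and 0.86.

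The mean of Dusp5 was 7.74 ± 1.41 CPM for WT LPS against 5.57 ± 1.35 CPM for KO LPS. The highest KO-labelled library, at 6.59 CPM, lay just above the lowest WT library, at 6.54 CPM. Its difference (log2 -0.48 ± 0.177, adjusted p = 0.0412) passed narrowly and was lost in 9 of 21 alternatives. Among these were the fits without WT PBS replicate 1 (-0.48, adjusted p = 0.0506), WT PBS replicate 3 (-0.47, 0.0527), WT LPS replicate 2 (-0.32, 0.186), WT LPS replicate 3 (-0.51, 0.0627), KO LPS replicate 1 (-0.54, 0.0576) and KO LPS replicate 2 (-0.29, 0.199). The mean of Dusp2 was 182 ± 15.2 CPM for WT LPS against 164 ± 4.50 CPM for KO LPS. WT LPS replicate 1, at 164 CPM, fell among the KO-labelled libraries, and Dusp2 did not pass (log2 -0.15 ± 0.0660, adjusted p = 0.0870) except without that library (-0.21, adjusted p = 0.00348), with upper-quartile scaling (-0.22) and with totals (-0.24). With a correction for GC content the sign of Dusp2 turned, at 0.063 (adjusted p = 0.55).

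For Dusp1, the most abundant member, the means were 434 ± 29.1 and 417 ± 8.10 CPM (log2 -0.06 ± 0.0575, adjusted p = 0.453), with a 95% interval of -0.18 to 0.06. Dusp10 averaged 7.17 ± 1.47 and 7.72 ± 0.442 CPM (log2 0.11 ± 0.128, adjusted p = 0.536), so that the lower resting level in KO-labelled cells had no counterpart past the threshold after LPS. Dusp14 averaged 0.531 ± 0.225 and 0.370 ± 0.0646 CPM, with an interval of -1.47 to 0.43 (adjusted p = 0.377).

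The response to LPS itself was then compared between the labels by the interaction of genotype and LPS, the log2 response of KO-labelled cells minus that of WT cells. Of the 8 genes, 5 passed, 4 with a higher value in KO-labelled cells and 1 with a lower one (18.0% of all genes passed, 9.78% higher and 8.26% lower). Over all genes the split was 1180 higher and 996 lower with TMM, 932 and 1229 with the upper quartile, and 627 and 1945 with library totals alone. The interaction exceeded 1 log2 unit in 3 of the 8, against 2.69% of all genes. The median of the members was 0.33 against 0.0095. Each response uses the PBS libraries of its own label, so a difference at rest enters the interaction as much as a difference after LPS.

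Dusp4 had the largest interaction, with responses of -0.25 in WT and 1.39 in KO-labelled cells (difference 1.64 ± 0.190, SE, adjusted p = 2.97e-05). Its difference at rest (-0.96) and after LPS (0.69) had opposite signs and both passed. For Dusp6, the responses were -1.41 and -0.16 (difference 1.25 ± 0.111, adjusted p = 2.09e-06), so the WT decline was not matched under the KO label. For Dusp16, the responses were 3.71 and 4.75 (difference 1.04 ± 0.134, adjusted p = 6.79e-05), and the labels differed after LPS but did not pass at rest. For Dusp10, the responses were 0.31 and 1.00 (difference 0.69 ± 0.179, adjusted p = 0.0146), and the labels differed at rest but did not pass after LPS. Among the 5, Dusp2 alone had a smaller response in KO-labelled cells, 4.14 against 4.76 (difference -0.62 ± 0.111, adjusted p = 0.00107), with a higher level at rest and no difference past the threshold after LPS.

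These 5 calls held in all 20 alternative fits, the omission of each of the 12 libraries among them, whereas Dusp10 and Dusp2 did not reach a threshold of 1 log2 unit. The interaction ranged from 1.49 to 1.82 for Dusp4, 1.11 to 1.29 for Dusp6, 0.90 to 1.14 for Dusp16, 0.55 to 0.85 for Dusp10 and -0.76 to -0.52 for Dusp2. The largest adjusted p among them was 0.0487, for Dusp10. Dusp1 had an interaction of -0.02 ± 0.0839 (adjusted p = 0.885) with a 95% interval of -0.20 to 0.15, the narrowest of the 8, while for Dusp5 (-0.03 ± 0.287, adjusted p = 0.961) the interval ran from -0.64 to 0.58 and for Dusp14 (-0.60 ± 0.617, adjusted p = 0.564) from -1.91 to 0.70. Beside the genotype comparisons stand the marker sums given above. Those of fibroblasts, mesothelium and mast cells did not overlap between the labels under either treatment, those of macrophages did not overlap under PBS and did under LPS, while those of skeletal muscle and T cells overlapped under PBS and did not under LPS. The mast cell sum crossed between the labels in the same directions as Dusp4, although only 1 of its 6 markers passed the filter, and its part in that result was not tested.

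**Figure D5:**
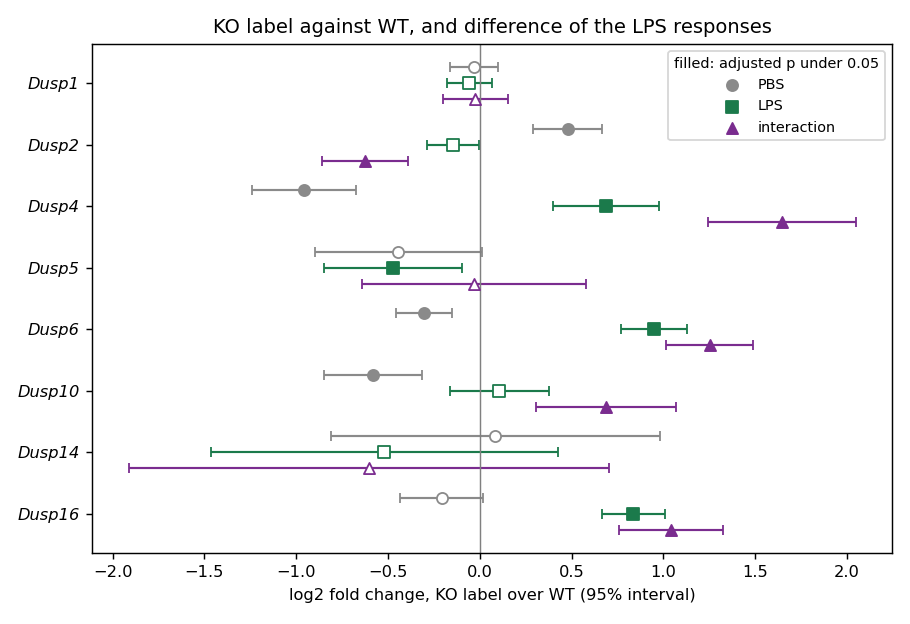
Log2 difference of KO-labelled over WT libraries under PBS (circles) and LPS (squares) and the interaction (triangles) for the 8 Dusp genes, each with its 95% interval and filled where the adjusted p is under 0.05. Dusp4 crosses from -0.96 under PBS to 0.69 under LPS, all Dusp1 values lie near 0, and the intervals of Dusp14 are the widest.

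Ordered by group, the 8 genes showed several patterns. Dusp16 was highest in KO LPS, then WT LPS, WT PBS and KO PBS, and no neighbours in this order overlapped. Dusp6 ran from WT PBS over KO PBS and KO LPS to WT LPS, again with no overlap between neighbours. Dusp1, Dusp2 and Dusp5 were highest in WT LPS, where they overlapped KO LPS. For Dusp4, KO LPS stood above and KO PBS below the 2 WT groups, which overlapped each other. Dusp10 differed in KO PBS, which lay below the other 3 groups, and the groups of Dusp14 all overlapped their neighbours.

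Over the 12 libraries, log2 levels of Dusp1 correlated with those of Dusp2 (Pearson r = 0.996), Dusp16 (0.987) and Dusp5 (0.932), and those of Dusp6 ran against them (-0.74 with Dusp1, -0.765 with Dusp2, -0.767 with Dusp5). Dusp4 was closest to Dusp10 (0.813). The libraries share a large LPS effect, so these values describe the pattern over 4 groups and carry no test. The tested genes most like each member by this measure were Irf1, Socs1 and Samhd1 for Dusp1 (0.9994 to 0.9993), Dram1, Tcf4 and Cebpd for Dusp2 (0.9993 to 0.999), and Slc4a7, Msn and Mtpn for Dusp16 (0.9993 to 0.9987). For Dusp4 they were Mamld1, Fam129b and Ninj1 (0.9864 to 0.9281), for Dusp6 Arhgap6, Slc20a1 and Zfp608 (0.9729 to 0.9673), and for Dusp5 Lox, Flt4 and Snap29 (0.9756 to 0.9711). Eif4a1, Tes and Pcdh7 were nearest to Dusp10 (0.9574 to 0.9441) and Gng5-ps, Rps27rt and Leprotl1 to Dusp14 (0.8929 to 0.8072).

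The remaining genes of the pathway were counted from lists of known members. Their counts stand beside all genes tested, of which 76.7% passed with LPS in WT (36.5% higher, 40.2% lower) and 79.9% in KO-labelled cells (38.8% and 41.1%), 25.3% between the labels under PBS (12.3% and 13.0%), 41.4% under LPS (22.1% and 19.3%) and 18.0% in the interaction (9.78% and 8.26%), and nothing is called particular to a list from its count. With library totals alone, the median LPS change of all genes moved by -0.66 in WT and -0.80 in KO-labelled cells, a shift that bears on each LPS value of these lists. Of 13 other dual-specificity phosphatase genes tested, 2 passed as higher and 8 as lower with LPS in WT, and 3 and 8 in KO-labelled cells, with medians of -0.59 and -0.64, so that the 10 called in WT are at the background share. Dusp3, a small phosphatase of ERK and JNK, fell from 326 to 72.5 CPM in WT (log2 -2.17) and from 330 to 65.8 CPM in KO-labelled cells (-2.33). Dusp18 was lower (-2.47 and -2.81), while Dusp28 (2.22 and 2.07) and Dusp11, which acts on RNA, (0.77 and 1.03) were higher, the WT value of Dusp11 being 0.10 and not called with library totals alone. Between labels, 2 were higher and 1 lower under PBS, and 4 higher and 2 lower under LPS. Dusp23 was lower in KO-labelled cells under both treatments (-0.67 and -0.72). In the interaction 2 passed, both higher, of which Dusp11 (0.27) lost its call in 11 of 20 alternatives. The other was Dusp8 (1.26, adjusted p = 0.0168), a rare transcript. It averaged 1.40 CPM in WT PBS, 1.37 in WT LPS, 1.18 in KO PBS and 2.77 in KO LPS.

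Of 8 MAP kinase genes tested, 3 were higher and 4 lower with LPS in WT, and 4 and 3 in KO-labelled cells (76.7% and 79.9% of all genes passed). Mapk9, which encodes a JNK, rose by 0.87 and 0.95 and Mapk6, an atypical MAP kinase, by 0.80 and 0.90, while Mapk14, the gene of p38 alpha, was lower by 0.50 in WT and by 0.24 in KO-labelled cells. With library totals alone Mapk9 was at 0.20 and 0.15 and Mapk6 at 0.14 and 0.10, and both lost their call in KO-labelled cells. None passed between the labels under PBS with edgeR or DESeq2 (2 of the 8 had an unadjusted p under 0.05 in edgeR), and under LPS 5 were higher and 1 lower in KO-labelled cells, led by Mapk8, another JNK, at 0.75, with Mapk3, an ERK, at -0.31. In the interaction 1 was higher (Mapk8, 0.49) and 1 lower (Mapk3, -0.28), and these calls were lost in 15 and 9 of 20 alternatives. Of all genes, 25.3% passed under PBS, 41.4% under LPS and 18.0% in the interaction.

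Upstream, 24 genes of the MAP2K, MAP3K and TAB proteins were tested. With LPS 9 were higher and 10 lower in WT, and 11 and 10 in KO-labelled cells. Map3k8, the kinase that links Toll-like receptors to ERK, rose from 10.9 to 74.4 CPM in WT (log2 2.77) and from 14.9 to 100 CPM in KO-labelled cells (2.75). Map2k1, which phosphorylates ERK, rose by 2.52 and 2.83, and Map3k1 was lower (-2.40 and -2.56). Between the labels, 7 passed under PBS, all of them higher, and 11 were higher and 1 lower under LPS (25.3% and 41.4% of all genes passed). Under LPS Map3k5, an activator of p38 and JNK, was higher by 0.79 and Map2k3, which phosphorylates p38, by 0.54. In the interaction 3 were higher and 1 lower, the latter Map3k14 at -0.89.

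Downstream, all 10 kinases activated by MAP kinases passed with LPS, 5 higher and 5 lower under each label, where 76.7% and 79.9% of all genes passed. Mapkapk2, the p38 target that stabilises cytokine mRNA, rose from 194 to 1640 CPM in WT (log2 3.08) and from 200 to 2140 CPM in KO-labelled cells (3.42). Mknk2, which phosphorylates a translation initiation factor, fell from 282 to 11.4 CPM in WT (-4.62) and from 288 to 8.17 CPM in KO-labelled cells (-5.14). Under PBS 1 was higher and 1 lower in KO-labelled cells (Rps6ka2, -0.71), under LPS 5 and 2, and in the interaction 5 and 2, with Rps6ka2 at 0.99.

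Of 6 Sprouty and SPRED genes, which encode inhibitors upstream of ERK, 2 were higher and 2 lower with LPS in WT, and 3 and 2 in KO-labelled cells (76.7% and 79.9% of all genes passed). Spred1 rose from 43.6 to 435 CPM in WT (log2 3.32) and from 36.4 to 458 CPM in KO-labelled cells (3.65). Spry2 was higher by 0.40 and 0.34, values that turned to -0.26 and -0.47 with library totals alone, and to -0.02 in KO-labelled cells with upper-quartile scaling. Under PBS 1 was lower in KO-labelled cells (Spred1, -0.26, and -0.20 with adjusted p = 0.0522 without KO PBS replicate 2). Under LPS 1 was higher, and in the interaction 2 were higher. Of all genes, 25.3% passed under PBS, 41.4% under LPS and 18.0% in the interaction.

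Of 12 early targets of ERK, 7 were higher and 4 lower with LPS in WT, and 6 and 4 in KO-labelled cells (76.7% and 79.9% of all genes passed). Junb rose from 79.8 to 777 CPM in WT (log2 3.28) and from 83.3 to 976 CPM in KO-labelled cells (3.55). Phlda1 rose from 3.91 to 36.2 CPM in WT (log2 3.21) and from 2.06 to 103 CPM in KO-labelled cells (5.64), and Ier3, an immediate early gene, from 13.9 to 113 CPM and from 13.5 to 233 CPM. Egr2, a zinc finger transcription factor, fell from 62.9 to 5.41 CPM and from 64.2 to 10.6 CPM, and Etv5, an ETS factor, from 25.1 to 4.04 CPM and from 15 to 2.96 CPM. Under PBS 2 were higher in KO-labelled cells, Fos (0.38) and Ier2 (0.29). Another 4 were lower, among them Ccnd1, which encodes a D-type cyclin, (-1.17) and Etv5 (-0.74). Under LPS 7 were higher and 2 lower, with Phlda1 at 1.51, Ier3 at 1.05 and Ccnd1 at -1.32. In the interaction 8 were higher and 1 lower, with Phlda1 at 2.43, Fosl1 at 1.54 and Fos at -0.63. Of all genes, 25.3% passed under PBS, 41.4% under LPS and 18.0% in the interaction.

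Of 7 other phosphatases known to act on MAP kinases, 5 were higher and 2 lower with LPS in WT, and 5 and 1 in KO-labelled cells (76.7% and 79.9% of all genes passed). Ppm1b (1.14 and 1.29) and Ppp2ca, a catalytic subunit of a serine/threonine phosphatase, (0.80 and 1.09) were higher under both labels. With library totals alone Ppm1b was at 0.48 and 0.49 and Ppp2ca at 0.14 and 0.29, all passing. Ptpn7, a tyrosine phosphatase of leukocytes that acts on ERK and p38, fell from 52.0 to 28.1 CPM in WT (log2 -0.89) and averaged 40.7 and 39.6 CPM in KO PBS and KO LPS, the order of group means that Dusp6 also had. Under PBS 2 passed, both lower in KO-labelled cells, with Ptpn7 at -0.35. Under LPS 6 were higher and 1 lower, with Ptpn7 at 0.49, and in the interaction 2 were higher, with Ptpn7 at 0.85 (adjusted p = 1.26e-05). Of all genes, 25.3% passed under PBS, 41.4% under LPS and 18.0% in the interaction.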

How the data were processed

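Single-end reads of 50 bases from total RNA of 12 macrophage libraries, 3 in each of 4 groups, had been made on a BGISEQ-500. The authors deposited expected counts per gene, made according to their processing notes with Bowtie2 and RSEM 1.3.1 on GRCm38.p6 and not scaled between libraries. The methods of the paper name STAR and HTSeq instead. Decimals were present in 24.6% to 26.9% of the values of a library, whereas all counts of the 8 Dusp genes were whole. Reads carried no molecular identifiers, so the floor covers counting error only.

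Counts were rounded. Software was R 4.3.3 (edgeR 4.0.16, with limma 3.58.1). After filterByExpr and TMM scaling, 1 robust quasi-likelihood model of the 4 group means took in every library. The common coefficient of biological variation was 6.99%. P-values were two-sided and Benjamini-Hochberg adjusted over 12064 genes, with a threshold of 0.05. CPM uses TMM-scaled totals, and likeness was the Pearson correlation of log2 CPM with a prior count of 2. Exon lengths come from GENCODE, and gene positions and promoters from RefSeq, both on GRCm38.p6. Alternatives were other scalings (RLE, upper quartile, totals), no filter or a minimum of 10 counts in all libraries, DESeq2 1.42.0, fits to the compared groups only, a replicate block, omission of each library, and a change over 1 log2 unit. A GC correction was added after seeing the data. The pipeline was tested on simulated data.

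The members and lists were chosen with earlier results of these data known. Named are the 8 members and, from each list, some of the genes with the 2 largest changes each way. These had passed with at least 5 CPM in the higher group and no overlap of groups (overlap was not considered in the interaction). Other genes that met this rule are not named. For each member, the 3 most similar genes are named. The values of Dusp7 and Dusp8, the WT values of Ier3 and the KO-labelled values of Junb, Ptpn7 and Mapk14 were added after they were seen.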

Additional observations from a re-analysis of the deposited data

Results flagged for a closer look

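In 5 of the 8 genes the response to LPS differed between KO-labelled and WT cells by the test of the interaction (edgeR quasi-likelihood test, adjusted over all genes), where 18.0% of all genes passed. The log2 response of KO-labelled cells minus that of WT cells was 1.64 for Dusp4, 1.25 for Dusp6, 1.04 for Dusp16, 0.69 for Dusp10 and -0.62 for Dusp2. With each of the 12 libraries left out in turn, the same 5 genes passed with the same sign.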

How the results depend on the processing

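Of 823 alternative fits of the 8 genes in 5 comparisons, 772 kept the direction and the side of the threshold, 18 lost a call, 13 gained a call and 20 changed sign. Requiring a change over 1 log2 unit left 0 members under PBS, 0 under LPS between the labels, and 3 in the interaction. With single libraries left out, the number of members called was 5 to 7 (LPS in WT), 6 to 7 (LPS in KO-labelled cells), 4 to 4 (labels under PBS), 3 to 5 (labels under LPS) and 5 to 5 (interaction). Deviations of same-numbered libraries correlated between -0.0758 and 0.127 (18 pairs) and those of other numbers between -0.182 and 0.17 (36 pairs). These pairs include those across labels, which cannot share a mouse, so the ranges cannot exclude pairing within a label. Between PBS and LPS, same-numbered libraries correlated at 0.0806, 0.0859 and -0.0479 in WT and at 0.0143, 0.0462 and 0.0364 under the KO label. Other numbers ran from -0.163 to 0.114 in WT and from -0.0355 to -0.00309 under the KO label. With the replicate number as a block, 7, 6, 4, 3 and 5 members were called instead of 6, 6, 4, 4 and 5, the gain being Dusp4 in WT (-0.26, adjusted p = 0.0303) and the loss Dusp5 between labels under LPS (-0.47, adjusted p = 0.0543).

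Values changed sign as follows, and the cause was not tested. With library totals alone, Dusp10 in WT was -0.35, Dusp14 in KO-labelled cells -0.51 (-0.078 with the upper quartile), Dusp1 between labels under PBS 0.0161, and Spry2 -0.26 in WT and -0.47 in KO-labelled cells (-0.0208 with the upper quartile). With the GC correction, Dusp1 was 0.0343 under PBS, 0.0857 under LPS and 0.0513 in the interaction, Dusp2 was 0.0629 under LPS and Dusp5 0.0533 in the interaction. With single libraries left out, Dusp1 ran from -0.0703 to 0.0071 under PBS (above 0 without WT PBS replicate 1 or KO PBS replicate 2) and from -0.0685 to 0.0318 in the interaction (above 0 without replicate 2 of WT PBS or WT LPS). Dusp5 ran from -0.17 to 0.16 in the interaction (above 0 without replicate 2 of any group), Dusp10 from -0.035 to 0.26 under LPS (below 0 without WT LPS replicate 2), Dusp14 from -0.19 to 0.37 under PBS (below 0 without WT PBS replicate 3 or KO PBS replicate 1) and Ythdf1 from -0.0552 to 0.0115 under LPS (above 0 without WT LPS replicate 1). Over all genes, 3058 were called between labels under PBS, against 4627 in the fit of only those libraries and 1992 without KO PBS replicate 1. Dusp14 was not tested where at least 10 counts were required or in the fits of only the libraries compared, and a fit of only the libraries compared does not exist for the interaction. Of the 8 genes, Dusp14 and Dusp5 had the lowest counts, with 5 to 13 and 45 to 163 per library.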
